A study of Homo sapiens with 14 samples.

Results

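In MDA-MB-231 cells silenced for DAP5, the mRNA content of the heavy polysome pool was compared with total mRNA, gene by gene and within each culture. The comparison asks which mRNAs are still well translated with little DAP5. The genes taken were all those with at least 10 counts in 2 or more of the 4 libraries concerned, which were 14940 of the 58434 symbols in the deposited count table, while 32676 symbols had no read in these 4 libraries. By the GENCODE v29 annotation 12497 of the genes taken were protein-coding, 1200 were of other types, and 1243 symbols were not matched to a single annotated gene. MDA-MB-231 is an established breast cancer line of mesenchymal character. Its cells carried a lentiviral shRNA that doxycycline switches on, aimed at DAP5 in the line called shDAP5 here and at no target in the line called shNSi. Both were selected stable populations, and both were given doxycycline at 1 µg/ml for 6 days. Each line was represented by 2 cultures. For every culture there was a library of total mRNA, a light pool and a heavy pool, and with the moderate pools of the control line the series held 14 libraries. The study describes light pools as mRNA on 2 to 3 ribosomes and heavy pools as mRNA on 4 or more, and names no moderate pool. Whether the heavy pools of both lines were the same cut of the gradient is therefore not known. The shDAP5 heavy libraries had 27482061 and 27825912 counts, and the shDAP5 total libraries 25965424 and 27812007.

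Polysome profiling sorts mRNAs by how many ribosomes they carry, so the share of an mRNA in heavy polysomes relative to its total level is read as its translation efficiency. The number of ribosomes that fit on an mRNA is bounded by the length of its coding sequence, and RNAs that stay in the nucleus or carry no long reading frame should be scarce in heavy polysomes. DAP5, the product of EIF4G2, is a relative of the scaffold eIF4G1 that lacks the part binding the cap-binding protein eIF4E, and it is known to promote initiation without eIF4E.

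The labels were checked first. EIF4G2 itself had 523 and 723 CPM (counts relative to library size, scaled by TMM over 8 libraries) in total mRNA of the shDAP5 cultures, against 1393 and 1340 in the shNSi cultures. In heavy polysomes it had 670 and 684 CPM in the shDAP5 cultures and 1285 and 1227 in the shNSi cultures. Both shDAP5 cultures thus lay below both shNSi cultures in each fraction, and silencing was partial at the level of mRNA. The study also shows silencing of the DAP5 protein by immunoblot, which these libraries do not measure. The shDAP5 total libraries are titled as a total polysome sample, whereas their codes are those of total mRNA, and they were read as total mRNA. The shDAP5 light libraries are titled as light but carry the code that marks the moderate pool in the control line, so light values are given by title only. Of 9 nuclear long noncoding RNAs tested, 7 were higher in the libraries read as total than in heavy polysomes in both cultures, as were all 7 small nuclear and signal recognition RNAs tested, while TUG1 was not (135 and 152 CPM in total, 144 and 137 in heavy). The nuclear paraspeckle RNA NEAT1 had 41.4 and 55.8 CPM in total against 16.7 and 13.2 in heavy, and the signal recognition particle RNA RN7SL1 had 23.4 and 10.3 against 2.98 and 3.78. These values do not settle what the total libraries are. By their median the nuclear long noncoding RNAs were higher in the light libraries than in total (0.68), so pooled polysomes could exceed heavy polysomes in them too, while the small nuclear and signal recognition RNAs were lower in light than in total (−2.36). Total mRNA as the denominator of every ratio thus rests on the codes, and whether monosomes or unbound RNA make up part of these libraries was not tested. All 10 markers of MDA-MB-231 cells passed the filter, with VIM the most abundant at a mean of 4557 CPM, and 7 of 11 luminal and epithelial markers did, led by KRT18 at 665 CPM, while PGR and GRHL2 had 0 counts in all 4 libraries. Of 7 leukocyte markers 2 passed the filter, CD14 with 38 to 66 counts a library and CSF1R with 20 to 55, and MS4A1 was at 0 in all 4. Of the endothelial and fibroblast markers PDGFRB passed, with 27 to 39 counts, and PDGFRA was at 0 in all 4.

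The 2 shDAP5 cultures differed from each other, and this bears on every result. Across the 14940 genes, which are not independent replicates, the heavy to total log2 ratio of one culture correlated with that of the other at Pearson's r = 0.25, whereas the 2 shNSi cultures gave r = 0.79. Libraries of one kind were alike in level, with r = 0.98 for log2 CPM of the shDAP5 heavy pair and 0.99 for the total pair. The difference between cultures followed coding length. For mRNAs with a coding sequence over 5000 nucleotides the second heavy library lay below the first by a median log2 of −0.58, and the second total library above the first by 0.22. For those under 300 nucleotides the corresponding medians were 0.34 and −0.26. Neither culture is marked in the labels as different, and the source of the difference was not tested. A fitted value near 0 can therefore stand for cultures on opposite sides of 0.

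**Figure D1:**
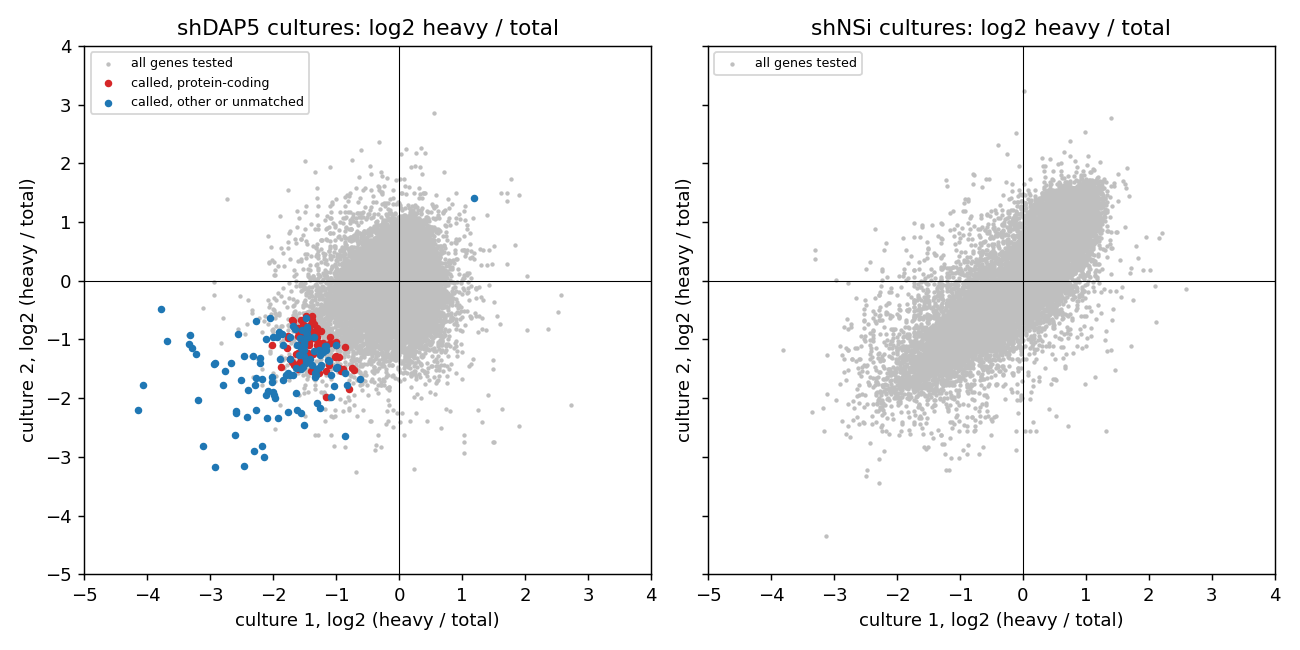
Heavy to total log2 ratio in culture 1 (x axis) and culture 2 (y axis), 1 point per gene for 14940 genes, for shDAP5 cells on the left and shNSi cells on the right, with the shDAP5 genes past an adjusted p of 0.05 in color. The shDAP5 points form a round cloud (r = 0.25) with the 197 lower genes at its lower left and the 1 higher gene, RPL5P4, at its upper right (1.19 and 1.41), and the shNSi points a long diagonal one (r = 0.79).

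For most genes of DAP5-silenced cells the heavy to total ratio was close to 0 on the log2 scale. The median log2 ratio was −0.02 and the 5th to 95th percentile range ran from −0.99 to 0.52, against −1.63 to 1.11 in shNSi cells. Lower in heavy polysomes than in total mRNA were 197 genes (1.32% of genes tested), by edgeR's quasi-likelihood test with a term for each culture, at an adjusted p under 0.05 (Benjamini-Hochberg over 14940 genes). All 197 were below 0 in both cultures. Higher was 1 gene (0.00669%), the processed pseudogene RPL5P4, with 1.35 and 1.77 CPM in total mRNA and 3.19 and 4.83 in heavy polysomes. Its log2 ratio was 1.34 (standard error 0.37, adjusted p = 0.0346 in edgeR), but it shares sequence with RPL5 and rests on 36 to 120 counts a library, and the call was lost with culture 2 left out. No protein-coding gene was called higher, by edgeR or by DESeq2, whereas limma on quantile-normalized values called 2. At an unadjusted p under 0.05 edgeR found 158 protein-coding genes higher and 655 lower. Of the lower genes 78 were protein-coding, 76 were of other annotated types and 43 were not matched to a single annotated gene.

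The lower count depended on the cultures and on the pairing. With culture 1 left out 545 genes were called lower and 143 higher, and with culture 2 left out 342 and 11. In these fits the lone shDAP5 culture was assumed to vary as the shNSi cultures do. Of the 197 lower genes, 116 were also called lower without culture 1 and 145 without culture 2. Without the pairing of libraries by culture (no replicate block) 92 genes were called lower, all of them among the 197.

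**Figure D2:**
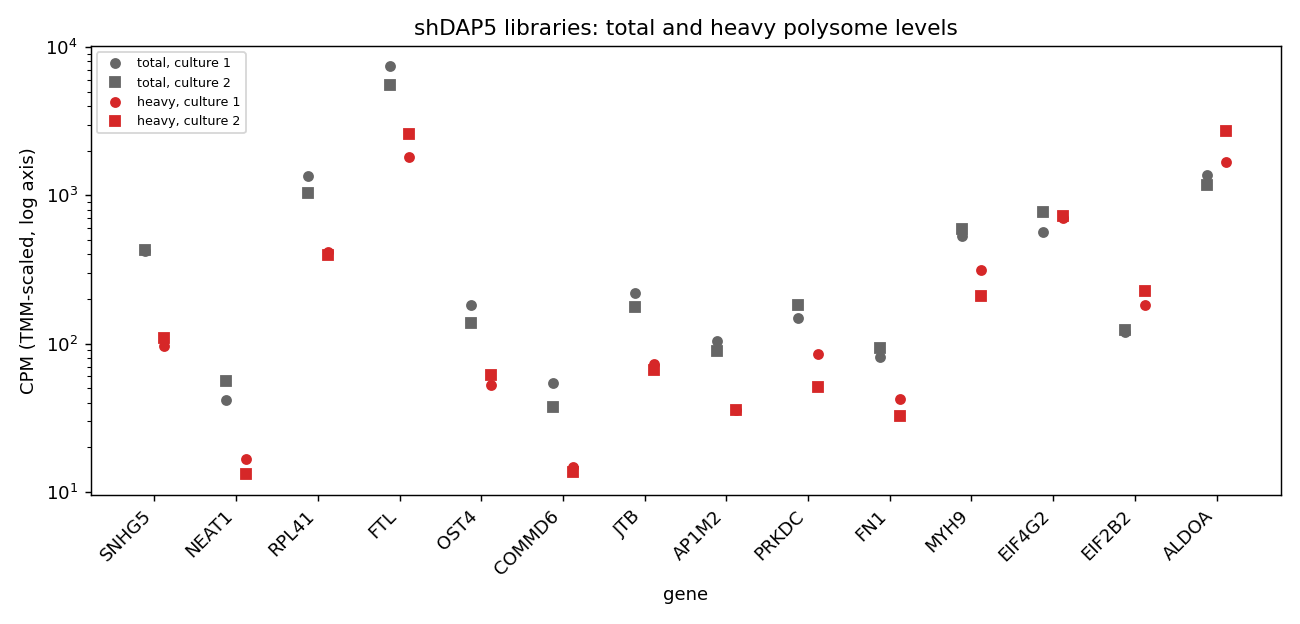
CPM (TMM-scaled, log axis) of 14 genes in the 2 total mRNA libraries (grey) and the 2 heavy polysome libraries (red) of shDAP5 cells, circles for culture 1 and squares for culture 2. From SNHG5 to MYH9 both heavy values lie below both total values, and for EIF2B2 and ALDOA both lie above.

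Among protein-coding mRNAs the lower ones were mostly those with very short reading frames. The coding sequence was under 600 nucleotides in 59 of the 78 lower mRNAs (75.6%), against 1556 of 12491 genes tested with a known coding length (12.5%). The median coding length was 344 nucleotides in the lower mRNAs and 1404 in all. Reading frames of 3 of the 10 lowest mRNAs, and of SMIM7, another short frame, from an mRNA that was not called, are printed to show how short they are. They were read from the transcripts of GENCODE v29 (GRCh38), sense strand, with start and stop codons in capitals.
RPL41: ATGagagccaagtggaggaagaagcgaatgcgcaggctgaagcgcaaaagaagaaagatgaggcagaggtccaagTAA
OST4: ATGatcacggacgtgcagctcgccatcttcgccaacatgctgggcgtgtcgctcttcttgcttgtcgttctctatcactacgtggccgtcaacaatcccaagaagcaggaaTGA
COPS9: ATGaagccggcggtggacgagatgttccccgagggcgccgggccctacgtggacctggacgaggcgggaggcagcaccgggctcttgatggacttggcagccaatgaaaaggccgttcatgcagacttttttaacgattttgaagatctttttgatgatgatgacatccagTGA
SMIM7: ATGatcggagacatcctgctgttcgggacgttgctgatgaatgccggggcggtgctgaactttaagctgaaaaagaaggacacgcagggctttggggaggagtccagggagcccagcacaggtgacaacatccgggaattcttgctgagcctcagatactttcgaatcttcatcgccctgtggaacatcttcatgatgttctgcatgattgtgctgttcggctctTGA

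RPL41, the smallest ribosomal protein, has 75 coding nucleotides before its stop codon. It had 1343 and 1036 CPM in total mRNA and 413 and 395 in heavy polysomes, a log2 ratio of −1.55 (standard error 0.35, adjusted p = 0.00258 in edgeR). OST4, a subunit of the oligosaccharyltransferase that glycosylates proteins in the endoplasmic reticulum, has 111 coding nucleotides. Its levels were 181 and 137 CPM in total mRNA and 52.7 and 61.4 in heavy polysomes. COPS9, of the COP9 signalosome, has 171 and went from 73.7 and 63.2 CPM to 23.7 and 26.7. In all 3 both heavy values lay far below both total values, and the call held with either culture left out. SMIM7, a small membrane protein with 225 coding nucleotides, named because it lay far above mRNAs of like length, has a longer frame than these 3 and a 3′ UTR of 2501 nucleotides against 225 to 308. It had 83.3 and 76.5 CPM in total mRNA and 68.4 and 91.7 in heavy polysomes. Its log2 ratio was −0.01 (standard error 0.29, adjusted p = 0.995 in edgeR), with −0.28 in culture 1 and 0.26 in culture 2. A short frame did not go with a low ratio in every mRNA.

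The other mRNAs among the 10 lowest with at least 20 CPM were COMMD6 (log2 ratio −1.68), LSM10 (−1.56), FTL (−1.55), SELENOW (−1.53), JTB, CCNB1IP1 (−1.47) and AP1M2 (−1.44). COMMD6, a small member of the COMM domain family, had 54.3 and 37.6 CPM in total mRNA and 14.8 and 13.5 in heavy polysomes (adjusted p = 0.000214 in edgeR). FTL encodes the light chain of ferritin and is held off ribosomes by iron regulatory proteins when iron is scarce. It had 7410 and 5524 CPM in total mRNA and 1825 and 2602 in heavy polysomes (standard error 0.44, adjusted p = 0.0361 in edgeR), and its many pseudogenes make its count uncertain. With culture 1 left out it had −1.09 and an adjusted p of 0.0549 in edgeR. FTL was also below total mRNA in the light pool, at a log2 of −0.95, whereas COMMD6, JTB and AP1M2 lay above it there, at 0.84, 0.77 and 0.88.

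RNAs without a long reading frame made up much of the rest. Of 238 lincRNAs tested 20 were lower (8.40%), of 251 antisense RNAs 14 (5.58%) and of 79 genes annotated as processed transcripts 12 (15.2%), against 0.624% of protein-coding genes. Among host RNAs of small nucleolar RNAs, 16 were tested and 8 were lower (5 without culture 1 and 10 without culture 2), with a median log2 ratio of −1.05 (−1.23 in culture 1 and −0.72 in culture 2) against −0.02 over all genes. SNHG5 had 419 and 426 CPM in total mRNA and 96.4 and 110 in heavy polysomes, a log2 ratio of −2.04 (standard error 0.30, adjusted p = 9.83e-08 in edgeR). SNHG6 had a log2 ratio of −1.93, and GAS5, whose spliced RNA is known to be engaged by ribosomes and then decayed, had −1.24. GAS5 lost its call with culture 1 left out (−0.98). The highest of this list, SNHG17, had −0.24 and was not called. Of 9 nuclear long noncoding RNAs 4 were lower, against the 1.32% of all genes tested, among them NEAT1 (−1.70, adjusted p = 0.000170 in edgeR) and MALAT1 (−1.29). NEAT1 lost its call when either culture was left out, at −2.08 without culture 1 and −1.27 without culture 2, and without culture 2 MALAT1 (−0.79) and OIP5-AS1 (−0.58) were not called either, which left JPX (−1.29) as the 1 called. Of 7 small nuclear and signal recognition RNAs 5 were lower, with a median of −2.15. Without culture 1 RN7SL1 and RN7SL2 alone of these 5 were called, RMRP having −1.94, RPPH1 −1.04 and RN7SK −0.50. RMRP and RPPH1 are the RNAs of ribonucleases MRP and P. On the scale of the 4 libraries RN7SK had −3.78 in culture 1 and −0.49 in culture 2. The 5 lowest noncoding genes with at least 20 CPM were SNHG5, SNHG6, MTCO3P12, NEAT1 and LRRC75A-AS1. MTCO3P12 is a nuclear copy of a mitochondrial gene, so its reads may be mitochondrial, and its cultures lay at −2.55 and −0.90, with no call when either was left out (−0.90 without culture 1 and −2.52 without culture 2). The name of the deposited table hints at counting by strand, but no source used here states it, so reads of antisense RNAs and of the genes across from them may not have been separated.

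**Figure D3:**
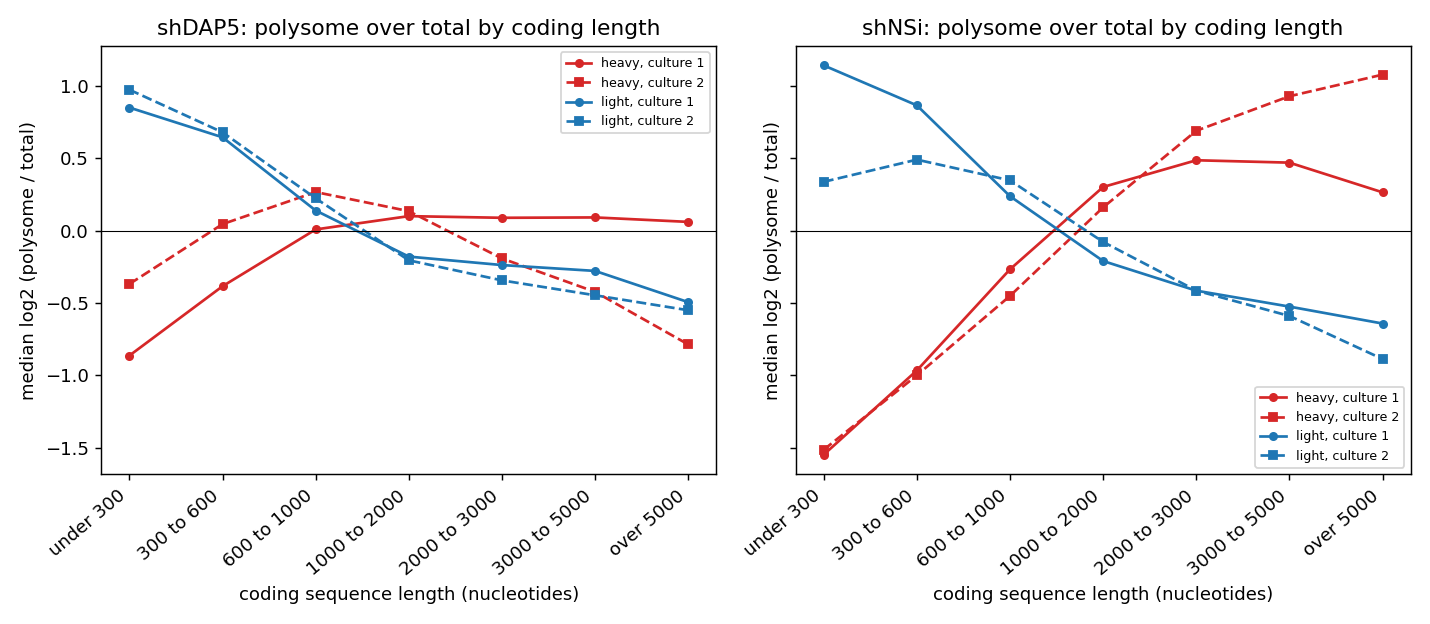
Median log2 of heavy (red) and light (blue) polysome mRNA over total in 7 bins of coding sequence length, each culture as a line, shDAP5 on the left and shNSi on the right, all 14 libraries on 1 scale. In shDAP5 cells the heavy lines cross, with culture 1 below culture 2 under 2000 nucleotides (−0.86 and −0.37 under 300) and above it beyond (0.06 and −0.79 over 5000), and in shNSi cells both run from under −1.5 to above 0.

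Coding length related to the heavy ratio in opposite ways in the 2 shDAP5 cultures. With all libraries on 1 scale, the median over the 239 genes under 300 nucleotides was −0.86 in culture 1 and −0.37 in culture 2. From 1000 to 2000 nucleotides, a bin of 4821 genes, it was 0.10 and 0.13. Over 5000 nucleotides, with 549 genes, it was 0.06 in culture 1 and −0.79 in culture 2. Spearman's rho between coding length and the ratio, across 12491 genes, was 0.27 in culture 1 and −0.33 in culture 2. In the shNSi cultures rho was 0.51 and 0.71, and the median over 5000 nucleotides was 0.27 and 1.08. In the light pool the shDAP5 cultures ran alike, from 0.85 and 0.97 under 300 nucleotides to −0.49 and −0.55 over 5000. By their median, mRNAs under 300 nucleotides were low in both shDAP5 cultures. The fitted median of −0.60 in that bin became −0.32 when the median coding length of each symbol's transcripts was used. Those of 300 to 600 nucleotides were low in culture 1 (−0.38) and not in culture 2 (0.05), and those over 5000 were low in culture 2 and not in culture 1.

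Of the 549 mRNAs with a coding sequence over 5000 nucleotides 4 were called lower (0.729%), a share close to the 0.624% of all protein-coding genes. The 4 were chosen for description after their values were seen, and by the median length of its annotated coding sequences, 654 nucleotides, MYH9 would not be among them. PRKDC, the catalytic subunit of DNA-dependent protein kinase, had 149 and 182 CPM in total mRNA and 85.5 and 51.0 in heavy polysomes, a log2 ratio of −1.32 (standard error 0.30, adjusted p = 0.00258 in edgeR). FN1, which encodes fibronectin, had 80.6 and 93.9 CPM in total mRNA and 42.5 and 32.2 in heavy polysomes, a log2 ratio of −1.23. MYH9, the heavy chain of nonmuscle myosin, had a log2 ratio of −1.12 and TNC, the matrix protein tenascin, −1.15. Culture 2 carried these calls. With it left out the log2 ratios were −0.76 for PRKDC, −0.88 for FN1, −0.72 for MYH9 and −0.96 for TNC, and none was called. In shNSi cells the fitted ratios were 0.42, 0.38, 0.47 and 0.63, none past the test, and shNSi culture 1 lay below 0 for all 4, from −0.44 for FN1 to −0.04 for MYH9. The difference passed the test for PRKDC (−1.72, adjusted p = 0.00998), FN1 (−1.59, adjusted p = 0.0220), MYH9 (−1.57, adjusted p = 0.0106) and TNC (−1.75, adjusted p = 0.00729), by the edgeR interaction of fraction and shRNA in 8 libraries. Of all 549 mRNAs over 5000 nucleotides 206 were called lower in that test. The 4 were picked by shDAP5 ratios that the test uses again, so their calls add no separate support. These calls also share the limits of that test given with its counts.

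To set length aside, each mRNA was compared with the running median of the mRNAs nearest to it in coding length, in each culture. The 8 mRNAs farthest above it in both cultures had coding sequences of 225 to 384 nucleotides. CHTF8, a partner of the clamp loader that works at replication forks, was first, at 0.94 and 0.87 above its neighbours, with 155 and 150 CPM in total mRNA and 192 and 248 in heavy polysomes. PTMS, the acidic nuclear protein parathymosin, was at 0.73 and 0.96, and MRPS14 of the mitochondrial ribosome at 0.64 and 0.80. NDUFB2 of respiratory complex I, POLR3K of RNA polymerase III, NCBP2-AS2, FAM127C and SMIM7 were the others. None of the 8 passed the test of heavy against total in edgeR, and in shNSi cells too all 8 lay above mRNAs of like length, by 0.27 to 1.66.
The 8 farthest below did all pass it, though FTL and IFNGR2 not with culture 1 left out (−1.09 and −0.86). They were AP1M2, CCNB1IP1, TMEM99, MAP3K13, FTL, IDS, JTB and IFNGR2. AP1M2, the epithelial medium chain of the AP-1 clathrin adaptor, had 105 and 89.1 CPM in total mRNA and 35.7 and 35.5 in heavy polysomes, and lay at −1.66 and −1.60 relative to its neighbours. MAP3K13, a kinase with 2898 coding nucleotides, went from 56.2 and 43.2 CPM to 23.3 and 14.5. IDS, the lysosomal iduronate sulfatase, had a log2 ratio of −1.27 (adjusted p = 0.00348 in edgeR). These 8 were low in shNSi cells too, at −0.92 to −2.33 relative to mRNAs of like length. Of the 8 low mRNAs, 6 carried an ATG upstream of the start in the annotated 5′ UTR, against 0 of 7 high mRNAs, 1 transcript per gene. The eighth, MRPS14, was left out because its annotated 5′ UTR, of 17 nucleotides, was too short to be scored. This is a description of mRNAs picked by their values.

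Upstream ATGs went with a lower ratio among mRNAs with coding sequences of 300 to 2000 nucleotides, and shorter ones were not examined for this. For coding sequences of 1000 to 2000 nucleotides the median log2 ratio was 0.20 in 2174 mRNAs without an upstream ATG, 0.10 in 1603 with 1 or 2 and 0.02 in 863 with 3 or more. From 300 to 1000 nucleotides the medians were 0.13, −0.02 and −0.08. The order was the same in each culture, with −0.06, −0.15 and −0.18 in culture 1 and 0.32, 0.09 and −0.02 in culture 2 for the shorter class. From 2000 to 5000 nucleotides the medians were −0.08, −0.05 and −0.09, and the cultures ran opposite ways, with 0.06, 0.11 and 0.12 in culture 1 and −0.22, −0.24 and −0.32 in culture 2. Medians in shNSi cells fell in the order of more upstream ATGs in all 3 length classes. They were −0.53, −0.63 and −0.68 from 300 to 1000 nucleotides and 0.40, 0.13 and −0.02 from 1000 to 2000. Between 2000 and 5000 nucleotides they were 0.80, 0.61 and 0.44. GC content of the coding sequence had opposite relations in the 2 shDAP5 cultures. From 1000 to 2000 nucleotides, mRNAs over 55% GC had medians of 0.01 in culture 1 and 0.37 in culture 2, and those under 45% GC had 0.17 and −0.13.

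At the top of the ranking stood mRNAs of middle length, none past the adjusted threshold of edgeR with both cultures. The 10 highest protein-coding mRNAs with at least 20 CPM and the same direction in both cultures, listed after their values were seen, ranged in log2 ratio from 0.70 for CDC37 to 0.77 for PSMB10 and in coding length from 783 to 1428 nucleotides. EIF2B2, a subunit of the exchange factor of eIF2, had 119 and 123 CPM in total mRNA and 183 and 226 in heavy polysomes, a log2 ratio of 0.75 (standard error 0.29, adjusted p = 0.231 in edgeR). Both heavy values of EIF2B2 exceeded both total values. ALDOA, a glycolytic enzyme, had 1365 and 1173 CPM in total mRNA and 1675 and 2703 in heavy polysomes. Its log2 ratio of 0.75 had an adjusted p of 0.522 in edgeR. It was called by limma on quantile-normalized values and, at 1.21, with culture 1 left out. With culture 2 left out it had 0.33 and was not called. Of the 10, CDK5 (1.15), HSD17B10 (1.13), MACROD1 (1.09), PSMB10 (1.08) and NARFL (1.03) were likewise called without culture 1, and none was called without culture 2. Of 7463 protein-coding mRNAs with at least 20 CPM, 15 were above 0.5 in both cultures and 232 below −0.5. Above 1 in both cultures were 0, and below −1 were 31.

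Several housekeeping groups sat above 0 in heavy polysomes of both shDAP5 cultures, with 0 members called by edgeR or DESeq2. At an unadjusted p under 0.05 edgeR found 7 proteasome subunits and 3 glycolytic enzymes higher, and limma called 1 glycolytic enzyme, ALDOA. Without culture 1 edgeR called 2 proteasome subunits and 2 glycolytic enzymes higher, and without culture 2 it called 0 of either. All 31 proteasome subunits were tested, their median log2 ratio was 0.52 (0.26 and 0.74 in the 2 cultures), and 30 were above 0 in both cultures, PSMD1 being the exception at −0.24. The 17 glycolytic enzymes had a median of 0.40 (0.23 and 0.59), with 15 above 0 in both cultures, and the 13 actins and tubulins had 0.44 (0.19 and 0.65), with 12. The 13 subunits of eIF3, the complex that joins mRNA to the small ribosomal subunit, had 0.30 (0.09 and 0.47), from −0.51 for EIF3A to 0.52 for EIF3K. The 20 aminoacyl-tRNA synthetases had 0.08, which turned to −0.01 under library size scaling and also in limma after quantile normalization. The 14 endoplasmic reticulum chaperones had −0.04 (−0.16 and 0.07). In shNSi cells the medians were 1.06 for glycolytic enzymes, 0.94 for actins and tubulins, 0.69 for eIF3 subunits, 1.04 for the synthetases and 1.03 for the chaperones, each above its shDAP5 value, and 0.11 for proteasome subunits, below it, differences that were not tested for the lists.
The 79 cytosolic ribosomal protein mRNAs had a median of −0.16, but the cultures lay apart, at −0.58 and 0.35. Their median coding length was 453 nucleotides. Of all mRNAs under 300 nucleotides 12.6% were lower, and of those from 300 to 600 nucleotides 2.20%. Among the 79, 5 were lower (6.33% of the list against the 1.32% given for all genes), RPL41, RPS27, RPS29, RPL39 and RPL23A, with coding sequences of 75 to 468 nucleotides. Without culture 1 RPL41 alone of these was called, the other 4 having −0.97, −0.66, −0.87 and −0.81, and without culture 2 the list held 10 lower genes. Ribosomal protein genes have many processed pseudogenes, and how reads over such copies were counted is not given in the sources used here. The 15 other mRNAs with a terminal oligopyrimidine tract, the 5′ element through which mTOR sets translation, had a median of 0.28, and 0 were called by edgeR, DESeq2 or limma, with 0 also at an unadjusted p under 0.05. Of 75 respiratory chain subunits 2 were lower, ATP5I (−1.23) and NDUFC1 (−1.14), neither of them without culture 1 (−0.78 and −0.74). Without culture 1 the list had 0 lower and 3 higher, and without culture 2 it had 10 lower and 0 higher. The list median of 0.04 became −0.05 with library size, and the cultures were at −0.27 and 0.40. Of 13 selenoproteins 3 were lower, SELENOW, SELENOH (−1.17) and SELENOF (−1.14), with coding sequences of 261, 366 and 495 nucleotides. SEPHS2, also a selenoprotein but with 1344 coding nucleotides, had 0.34. Of all genes 1.32% were lower, and short mRNAs more often, which bears on the selenoprotein and respiratory chain counts alike. The 13 histones had −0.64 with 0 called by edgeR or DESeq2, 3 lower by limma and 4 lower at an unadjusted p under 0.05 in edgeR. Their mRNAs end in a stem loop in place of a poly(A) tail, and how RNA was selected for the libraries is not given in the sources used here.

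**Figure D4:**
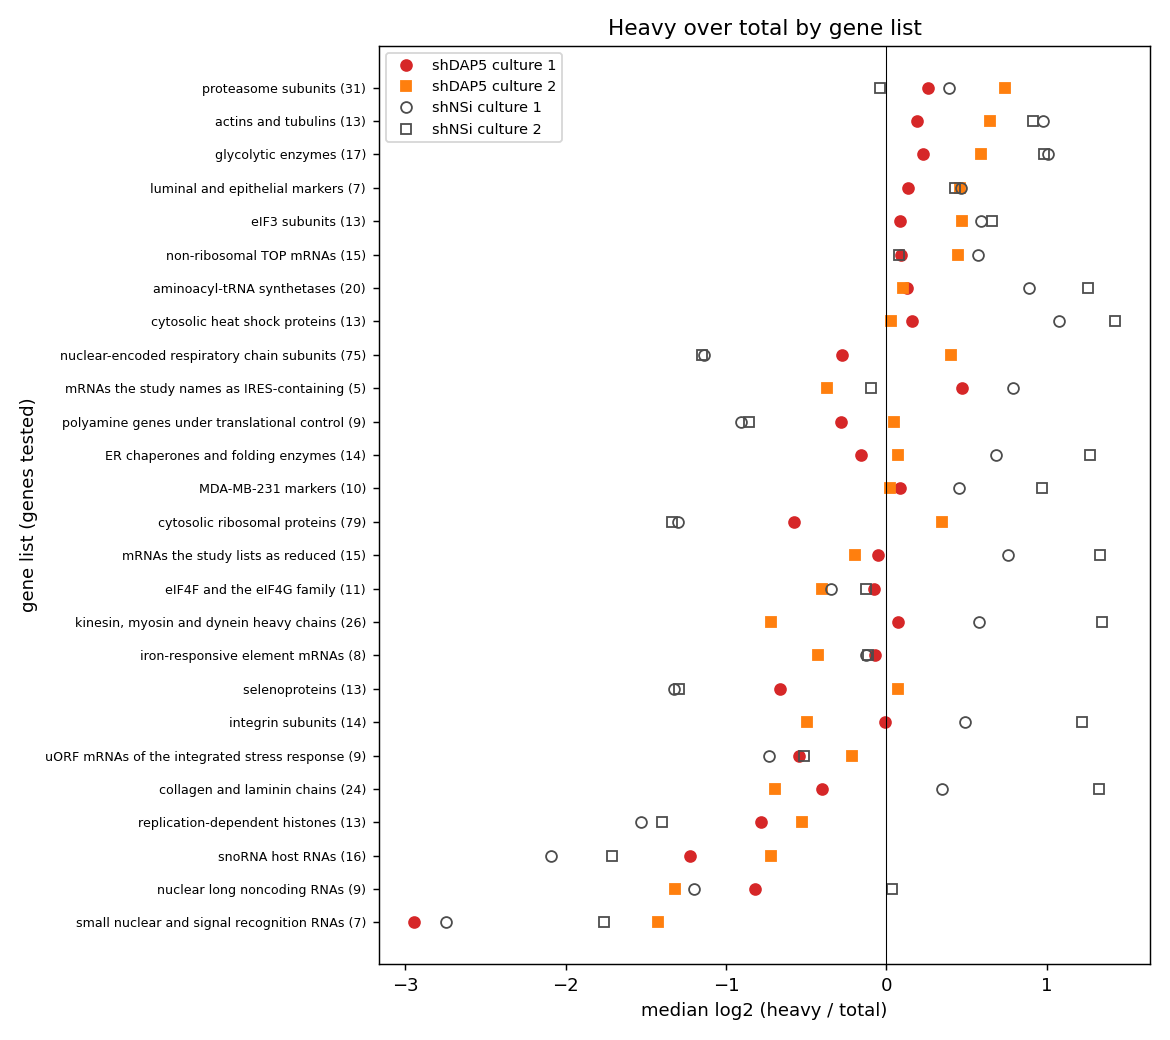
Median heavy to total log2 ratio for each gene list with 5 or more genes tested (number in brackets), shDAP5 cultures filled and shNSi cultures open, scaled over 4 and 8 libraries. Proteasome subunits lie at 0.26 and 0.74 in shDAP5 cells, and collagen and laminin chains at −0.40 and −0.69.

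Among adhesion and motor mRNAs, collagen and laminin chains were below 0 by their median in both cultures, while motor chains and integrins were clearly so in culture 2 alone. The 24 collagen and laminin chains had a median of −0.53 (−0.40 and −0.69), 22 of them below 0 in both cultures, from −1.06 for COL4A1. Of these 0 were called by edgeR or DESeq2 and 2 by limma, and 9 were lower at an unadjusted p under 0.05 in edgeR. COL4A1 had −1.38 without culture 1 and −0.70 without culture 2. The 26 kinesin, myosin and dynein heavy chains had −0.26, with 0.07 in culture 1 and −0.72 in culture 2, and edgeR and DESeq2 called MYH9 alone, limma also DYNC1H1. Without culture 1 edgeR called 7 of them and without culture 2 called 0. The 14 integrin subunits had medians of −0.01 and −0.50 in the 2 cultures, the first becoming 0.03 when scaled over 8 libraries. Of the integrins ITGAE was called (3 subunits without culture 1), at −1.13 (adjusted p = 0.0362 in edgeR). ITGAE was low in shNSi cells as well, at −2.24. A single call in a list this small says little beside the 1.32% lower of all genes, and the same holds for MYH9, DDIT3 and FTL in their lists. Stress and metabolite regulated mRNAs were mixed. Of 9 mRNAs with upstream reading frames known from the integrated stress response, DDIT3, which encodes the transcription factor CHOP, was lower, with 93.8 and 78.8 CPM in total mRNA and 39.7 and 43.4 in heavy polysomes (log2 ratio −1.05, adjusted p = 0.0412 in edgeR), but not in DESeq2 and not without culture 1 (−0.86). EIF5 of the same list had 0.32. Of 8 mRNAs with an iron-responsive element FTL alone was called by edgeR, and FTH1, the heavy chain of ferritin, also by DESeq2 and limma. Of 9 polyamine genes 0 were called by these 3 tools, with 2 lower at an unadjusted p under 0.05 in edgeR, from SAT1 at −0.79 to AMD1 at 0.21 among those with at least 20 CPM. The 13 cytosolic heat shock mRNAs had a median of 0.05, which was −0.04 with library size and −0.07 in limma. The polyamine median of 0.02 became −0.07 and −0.08 in the same alternatives.

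Of 11 members of the eIF4F complex and the eIF4G family 0 were called by edgeR or DESeq2, with 2 lower at an unadjusted p under 0.05 in edgeR, and limma called EIF4A1 lower. EIF4G2 had 563 and 769 CPM in total mRNA and 701 and 727 in heavy polysomes on the scale of the 4 libraries, a log2 ratio of 0.12 (standard error 0.33, adjusted p = 0.948 in edgeR). EIF4G2 was higher in heavy polysomes in culture 1 (0.32) and lower in culture 2 (−0.08), so no difference was detectable. EIF4G1, the main scaffold of the cap-binding complex, had 530 and 693 CPM in total mRNA and 532 and 525 in heavy polysomes. EIF4E, the cap-binding protein, had 56.7 and 77.7 CPM in total mRNA and 50.3 and 36.3 in heavy polysomes, a log2 ratio of −0.63 (adjusted p = 0.485 in edgeR). With culture 1 left out EIF4E was called lower, at −1.10. Its inhibitor EIF4EBP1 had −0.97 in culture 1 and −0.03 in culture 2. EIF4G3 (−0.24, with 0.24 and −0.71 in the cultures), EIF4EBP2 (−0.24), EIF4E2 (0.02, with −0.17 and 0.21), EIF4A2 (0.10), EIF4H (0.36) and the scarce EIF4E3 (−0.49) were not called. EIF4A1, the helicase of the complex, had 0.56 to 1.63 CPM, and as it shares exons with a readthrough annotation its count cannot be taken as its level.

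Of the 16 mRNAs that the study lists as reduced, 15 passed the filter and 0 were called in heavy over total by edgeR, DESeq2 or limma, with 2 lower at an unadjusted p under 0.05 in edgeR and 2 called lower without culture 1. The study chose the list on these libraries for a contrast between the lines, which is another question than heavy against total within shDAP5 cells. In edgeR's test of that contrast 10 of the 15 were lower and 0 higher, beside 8.53% lower of all genes, with the limits given for that test. As the list was chosen on these libraries, this count is no independent support. Long mRNAs were also called lower more often in that test, 397 of 1213 from 3000 to 5000 nucleotides, and the list had a median coding length of 3144. In shDAP5 cells the median heavy to total log2 ratio of the list was −0.23 (−0.05 and −0.20). The lowest member was TP53BP1 at −0.87, with −0.51 in culture 1 and −1.23 in culture 2. The highest was MYCL at 0.60, with about 1 CPM or less in each library. LAMC1 had −0.67, ITGAV −0.46 with 0.52 in culture 1 and −1.45 in culture 2, ITGA1 −0.43, OSMR −0.29, EGFR −0.27, ITGA3 −0.26, ITGA5 −0.23, CDK12 −0.16 and MMP1 −0.08. JUN had 0.09, SERPINE2 0.24, ETS1 0.33 and MMP3 0.42. The cultures also lay on opposite sides of 0 for EGFR (0.30 and −0.85), CDK12 (0.35 and −0.67), MMP1 (−0.33 and 0.17), SERPINE2 (−0.01 and 0.49) and MMP3 (−0.10 and 0.71). The 5 mRNAs named as IRES-containing had a median of 0.03 (0.47 in culture 1 and −0.37 in culture 2), which was −0.06 with library size and −0.05 in limma, and 0 were called by edgeR, DESeq2 or limma. Among them CDK1 had a log2 ratio of 0.50, APAF1 0.02 (0.64 and −0.60), BCL2 0.03 (0.47 and −0.42) and BIRC2 −0.15 (0.06 and −0.37). The controls ACTB (0.59), GAPDH (0.51), HNRNPD (0.55) and LMNA (0.24) were above 0 in both cultures.

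More genes were called in control cells. The gradients of the control line also gave a moderate pool, so its heavy pool may not be the same cut as in shDAP5 cells. This was not tested, and it limits every comparison between the lines. In a fit of 8 libraries, 3375 of the genes were lower (22.6%) and 3539 higher (23.7%) in shNSi cells, and the same fit called 394 lower and 2 higher in shDAP5 cells. Of the 197 genes lower in shDAP5 cells, 171 were also lower in shNSi cells, which is 86.8% of the first list and 5.07% of the second, and 0 were higher there. The difference between the lines was tested as the interaction of fraction and shRNA. It called 1275 genes lower (8.53%) and 765 higher (5.12%) in shDAP5 relative to shNSi cells. Of 549 mRNAs over 5000 nucleotides 206 were called lower and 0 higher, and of 239 under 300 nucleotides 0 were called lower and 97 higher. The called count was 0 with library size in place of TMM (lowest adjusted p = 0.0625), which moved the median difference of all genes from 0.09 to 0.30 on the log2 scale. It was also 0 without the replicate block (lowest adjusted p = 0.113). With shDAP5 culture 2 left out it was 0 and with shDAP5 culture 1 left out 4449, and with shNSi culture 1 or 2 left out it was 555 or 4. At an unadjusted p under 0.05 edgeR called 4553 genes with library size, 3469 without the block and 2893 without shDAP5 culture 2, and DESeq2 called 2118 at the adjusted threshold. The number of genes called between the lines thus varied with single cultures and with the scaling.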

How the data were processed

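The deposited file holds whole-number read counts per gene symbol for 14 libraries, without normalization by the authors. The submitters' processing notes name STAR 2.6.0a, limma and the build hg19, with no role or order given. Counts were analysed in R 4.3.3. The 14940 genes with at least 10 counts in 2 of the 4 shDAP5 heavy and total libraries entered edgeR 4.0.16, where TMM factors were set and a robust quasi-likelihood F test was run with a term for each culture. This leaves 1 residual degree of freedom, so the spread comes from the trend over all genes. Adjustment followed Benjamini and Hochberg, and an adjusted p under 0.05 was called. The difference between lines was the interaction in 8 libraries. Log2 ratios of single cultures use TMM-scaled CPM. Alternatives used DESeq2 1.42.0 and limma 3.58.1. Steps were tested on simulated data.

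Libraries of a culture share a code and a replicate number in the labels, and this is the pairing. Deviations of heavy and total libraries from their means correlated at 0.07 across genes. The labels number the cultures and the study calls its experiments independent, with no further detail, so p-values concern these libraries only. As the spread comes from the trend over all genes, edgeR's standard errors and p-values hardly reflect how far the 2 cultures lay apart for a single gene. ITGAV, at 0.52 and −1.45, had a standard error of 0.34, and OST4, at −1.78 and −1.15, had 0.30. Gene types, coding lengths and transcripts came from GENCODE v29 (GRCh38), used for names and lengths only. Of the distinct symbols 37582 matched by name, 31 by an older name and 534 by a synonym.

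Named genes were the 10 lowest and 10 highest called protein-coding genes and the 5 lowest and 5 highest of other types, with at least 20 CPM and the same direction in both cultures (none was higher). Added were the 8 farthest above and below mRNAs of like length, and the 6 lowest and highest differences with at least 20 CPM. The highest and lowest of each list were also added, with all members of the eIF4F list and the study's lists. Genes outside the rule are said to be so or are called members of a list. Members and lists were chosen with earlier results of these data known. Mitochondrially encoded mRNAs were not analysed here. Symbols turned into dates (27) were left as they stood.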

Additional observations from a re-analysis of the deposited data

Results flagged for a closer look

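The same contrast, heavy polysome over total mRNA, was compared between the 2 lines for single genes. Given here, as log2 differences of shDAP5 minus shNSi, are the 6 lowest and 6 highest past the adjusted threshold of edgeR's interaction test. Only genes with a mean of at least 20 CPM in the 4 shDAP5 libraries were taken. The lowest were COL4A1 (−2.05), ERAP1 (−1.99), PARP14 (−1.96), CPD (−1.95), MYO6 (−1.94) and SF3B1 (−1.91). The highest were NAA38 (1.73), NDUFB11 (1.71), MPG (1.68), TMEM256 (1.68), COX8A (1.63) and LGALS1 (1.61). All 12 lost the call with library size in place of TMM, without the replicate block, without shDAP5 culture 2 and without shNSi culture 2.

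With all 8 heavy and total libraries on 1 scale, the median of 2 gene lists was below 0 in both shDAP5 cultures and above 0 in both shNSi cultures, a difference that was not tested for the lists. Integrin subunits came close, at 0.03 and −0.50 in the shDAP5 cultures, and scaled over the 4 shDAP5 libraries, at −0.01 and −0.50, they also lay below 0 in both. Collagen and laminin chains had a median log2 ratio of −0.53 in shDAP5 cells and 0.91 in shNSi cells. The mRNAs that the study lists as reduced, a list chosen on these libraries, had −0.23 and 0.94, and on the scale of 8 libraries they were barely below 0 in shDAP5 culture 1, at −0.02, with −0.20 in culture 2.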

How the results depend on the processing

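For heavy over total in shDAP5 cells (198 genes called, 197 lower and 1 higher) the count of called genes, with lower and higher in brackets, was 92 (92 and 0) with no replicate block, 96 (96 and 0) with DESeq2, 107 (107 and 0) in a fit of all 14 libraries, 125 (125 and 0) with no filter on low counts, 382 (381 and 1) with library size in place of TMM, 396 (394 and 2) in a fit of 8 libraries, 538 (533 and 5) with limma on quantile-normalized values and 3 (3 and 0) with glmTreat against a log2 fold of 1, a stricter question by construction. With each shDAP5 culture left out it ranged from 353 to 688 (342 to 545 lower and 11 to 143 higher). It stayed within 1.5 times with upper-quartile scaling (213), filterByExpr (195) and at least 10 counts in all 4 libraries (202). For the difference between the lines (2040 called, 1275 lower and 765 higher) the count was 0 (0 and 0) with library size and with no replicate block, 721 (537 and 184) with a replicate block by fraction, and 2118 (1527 and 591) with DESeq2. Leaving out a culture gave 0 to 4449 (0 to 2385 lower and 0 to 2064 higher). Same-numbered cultures of the lines deviated at a correlation of −0.21 across genes, and with the numbers crossed in the replicate block, chosen after seeing the data, the count was 4159 (2373 and 1786). The cause of these shifts was not tested. No called gene named in the text changed direction under an alternative of heavy over total. The medians under 300 and over 5000 nucleotides, −0.60 and −0.34, were −0.32 and −0.36 with the median coding length of each symbol and −0.69 and −0.43 with library size. In leaving out a culture the lone one was assumed to vary like the other line's. Depth limits genes near the minimum of 10 counts.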
